A study of Mus musculus with 36 samples.

Results

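The subject here is 6 genes of the Ly6 family that lie within one cluster on mouse chromosome 15, Ly6a, Ly6c1, Ly6c2, Ly6e, Ly6i and Ly6k, out of 30205 genes with estimated counts. They were taken by symbol, and Ly6k was picked because of its loss in Mir324-null osteoblasts, so every value of Ly6k that involves osteoblasts is given as a description with no test. The data are RNA-seq tables of 36 libraries of cultured mouse bone cells, 6 in each of 6 groups formed by genotype and cell type. Mice were wild-type controls (WT) or Mir324-null (null, lacking the gene of the microRNA miR-324), all 20 weeks old. Neither strain nor sex is used here, and the labels do not say whether each library came from its own mouse, so the p-values measure the spread between these libraries, which may be technical.

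For bone marrow macrophages (BMM), marrow of the long bones was grown in M-CSF, the growth factor of macrophages, at 100 ng/mL for 3 days and then at 30 ng/mL for 5 days. The osteoclast group (OC) came from the same kind of precursor and received RANK-L, the cytokine that drives osteoclast formation, at 50 ng/mL beside M-CSF at 30 ng/mL for those 5 days. The osteoblast group (OB) grew out of collagenase-treated bone chips over about 6 weeks and was then held for 18 days in medium with 2 mM beta-glycerophosphate and 50 µg/mL ascorbic acid, which supports mineralisation. The labels describe the same culture steps for both genotypes.

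Library totals ran from 14118972 to 26347581 estimated counts. The deleted microRNA has no gene row in these tables, so the genotype labels were not checked by it and its level was not analysed here. Marker lists bore out the macrophage label, but not the osteoclast label of the null libraries. The 9 osteoclast markers summed to between 31109 and 35512 TPM (a level corrected for transcript length and library size) in WT OC and to between 236 and 572 TPM in null OC, where Calcr was listed at 0 in all 6 libraries; null OC therefore stands below for null cells given RANK-L. The OB cultures held osteoblast markers, with 28667 to 38773 TPM over 10 genes in WT and 43341 to 58872 in null. They held macrophage markers as well, 17991 to 22264 TPM in WT and 10353 to 15684 in null, and osteoclast markers, 4103 to 5161 and 5364 to 8106 TPM. In such bulk libraries, fewer cells of a type and less RNA per cell cannot be told apart.

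Ly6 proteins are small cell-surface proteins, most of them held in the membrane by a glycosylphosphatidylinositol (GPI) lipid anchor and built around the disulfide-linked LU domain that they share with CD59 and the urokinase receptor. Several are classic antibody markers of blood cells: Ly6a is Sca-1, found on stem and progenitor cells, and Ly6c marks inflammatory monocytes. Ly6a and Ly6e are known to be induced by interferons, and mice without Ly6a are known to lose bone with age. Ly6k is best known from the testis.

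In the GRCm38 annotation the cluster spans, in order, Ly6k (chr15:74796874-74799986, minus strand), Ly6e (chr15:74955051-74959905, plus strand), Ly6i (chr15:74979534-74983430, minus), Ly6a (chr15:74994877-74998031, minus), Ly6c1 (chr15:75044018-75048830, minus) and Ly6c2 (chr15:75108158-75111970, minus). Ly6c1 and Ly6c2 are the closest pair. Their coding sequences have 396 bases each and differ at 9 of them, an identity of 97.7%. Bases 1 to 300, with 7 of the 9 differing bases in capitals, are shown because reads within them can be told apart only at those bases (GENCODE M21 transcripts, 5′ to 3′).
Ly6c1: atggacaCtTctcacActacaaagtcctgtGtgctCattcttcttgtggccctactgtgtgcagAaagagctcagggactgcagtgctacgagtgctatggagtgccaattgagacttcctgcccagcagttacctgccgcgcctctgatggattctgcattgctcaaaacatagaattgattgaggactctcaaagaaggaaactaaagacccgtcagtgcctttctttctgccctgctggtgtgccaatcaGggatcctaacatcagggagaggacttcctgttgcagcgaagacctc
Ly6c2: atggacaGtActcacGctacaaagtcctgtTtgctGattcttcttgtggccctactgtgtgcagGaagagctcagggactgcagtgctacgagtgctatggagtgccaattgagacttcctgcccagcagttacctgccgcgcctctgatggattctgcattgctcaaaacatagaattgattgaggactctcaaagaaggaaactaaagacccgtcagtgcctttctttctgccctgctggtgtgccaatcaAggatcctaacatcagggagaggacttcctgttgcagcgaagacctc

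Identity between the coding sequences of Ly6a and Ly6i was 86.4%, and that of either with Ly6c1 was 82.0%. Ly6e and Ly6k were more distant, with Ly6k at 47.7% to 49.9% identity to the other members. Of the distinct 31-base words of each gene's listed transcripts, 53.2% in Ly6c1, 68.1% in Ly6a, 76.2% in Ly6c2 and 80.8% in Ly6i occurred in no other gene of the tables. Ly6e and Ly6k shared no word with another listed gene. The counting therefore had to divide reads among Ly6a, Ly6c1, Ly6c2 and Ly6i, and their values are uncertain to that extent. Ly6k overlaps Gm17189, an antisense gene that is not analysed here and that holds 312 of the 799 words of Ly6k on the opposite strand; whether the counting used strand is not given in the sources used here, so reads within those shared words could not be told apart. The other 487 words of Ly6k were in no other gene.

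The deleted gene makes 2 mature microRNAs, shown with their seeds (bases 2 to 8, the part that pairs with a target) in capitals, as RefSeq gives them for GRCm38.p6.
miR-324-5p: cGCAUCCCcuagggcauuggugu
miR-324-3p: cCACUGCCccaggugcugcu

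The sequence that pairs with the first seed, GGGATGC, occurred in the longest annotated 3′ untranslated region of 7.67% of 20075 genes, and that of the second, GGCAGTG, in 13.5%. Neither occurred in that of any of the 6 members. That says only that these letters are not in these regions.

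Ly6e was the most abundant member in every group by TPM. Ly6e made up 99.2% ± 0.17 (SD, n = 6) of the summed TPM of the 6 genes in WT BMM and 69.7% ± 3.3 in WT OB, where Ly6a made up 24.6% ± 2.5, Ly6c1 2.85% ± 0.42 and Ly6k 2.67% ± 0.76. In null OB these shares were 70.6% ± 4.4 for Ly6e, 25.7% ± 3.5 for Ly6a, 3.42% ± 1.0 for Ly6c1 and 0.105% ± 0.083 for Ly6k. The 6 genes together held 907 ± 62.4 TPM in WT OB and 544 ± 153 TPM in null OB.

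**Figure D1:**
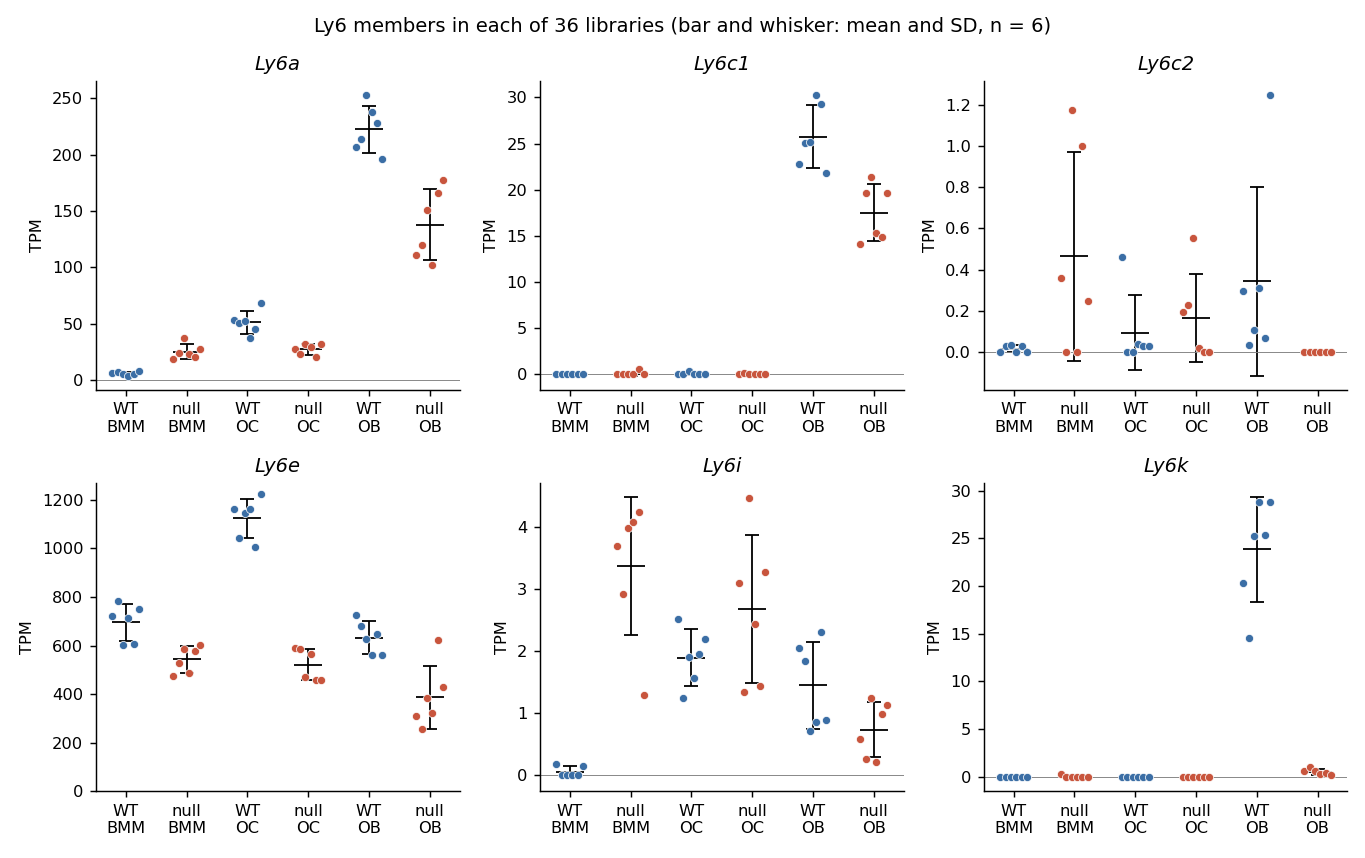
TPM of each of the 6 genes (one panel each, linear axis with its own scale) in the 36 libraries; points are libraries, blue WT and red null, and the black bar and whisker are the mean and SD of 6 libraries. Ly6c1 stands above the other cultures in OB of both genotypes and Ly6k in WT OB, Ly6e is highest in WT OC with 1006 to 1222 TPM, and Ly6k lies between 14.6 and 28.8 TPM in WT OB and between 0.164 and 1.02 TPM in null OB.

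Ordering the groups by mean level gave a different sequence for each of Ly6a, Ly6e and Ly6i. Ly6a ran from WT OB (222 TPM) through null OB (138), WT OC (51.1), null OC (27.1) and null BMM (25.2) to WT BMM (5.90), and among neighbours in that order only null OC and null BMM overlapped. Ly6e ran from WT OC (1123 TPM) through WT BMM (696), WT OB (633), null BMM (543) and null OC (522) to null OB (388), and every neighbouring pair after WT OC overlapped. Ly6i ran from null BMM (3.37 TPM) through null OC (2.68), WT OC (1.90), WT OB (1.45) and null OB (0.736) to WT BMM (0.0568), and only the last step was without overlap.

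Ly6a RNA was higher in null than in WT macrophages. Of the 6 members, 3 passed the filter on low counts in BMM (Ly6a, Ly6e and Ly6i), and Ly6a rose in null cells at an adjusted p under 0.05 with edgeR's quasi-likelihood test. In this comparison 27.0% of 11925 genes tested were called higher, 25.4% lower and 52.3% in all, so a call by itself was common. Ly6i passed the filter only through the null group, where it was higher, so its values against WT BMM are described here and below with no test.

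Ly6a, which encodes Sca-1, was at 3.78, 5.96 and 7.60 TPM (lowest, median and highest of 6) in WT BMM and at 18.5, 23.8 and 37.2 TPM in null BMM. All 6 null libraries lay above all 6 WT libraries. The rise was 4.57-fold, a log2 fold change of 2.19 (SE 0.22, edgeR adjusted p = 4.41e-07).

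Ly6i, a close relative of Ly6a, had at most 1.04 estimated counts in any WT BMM library. In null BMM it had 13.1, 36.8 and 44.4 counts (lowest, median and highest), or 1.30 to 4.24 TPM, so the groups were apart but the level was low. Against a floor of 3 counts per library in WT, its mean of 1.84 CPM (counts scaled to library size) in null BMM was at least 11.6-fold higher.

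Ly6e, an interferon-induced gene and the most abundant of the family, was at 603, 718 and 786 TPM in WT BMM and at 474, 554 and 601 TPM in null BMM. All WT libraries lay above all null libraries, by a narrow margin. On counts the difference was -0.16 (log2, SE 0.10, edgeR adjusted p = 0.178), so the call did not pass, while the ratio of mean TPM was -0.36 on the log2 scale. With a correction of each library's trend with transcript length and GC (the length and GC offset), the count difference became -0.32, and it passed (adjusted p = 0.00257). The direction was the same in both.

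Ly6c2, one of the Ly6c genes of monocytes, was filtered out in BMM. It had 0 to 1.10 counts in WT and 0 to 10.2 counts in null BMM, with 4 of the 6 null libraries at or under 3 counts. Ly6c1 and Ly6k had at most 2.58 and 2 counts in any BMM library.

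Markers of other cells differed between the genotypes in the same cultures. The 10 neutrophil markers summed to 2.17 to 3.57 TPM in WT BMM and to 44.2 to 107 TPM in null BMM, with 7 of the 10 at or under 3 counts in every null library, among them Ly6g, Elane, Mpo and S100a9. The monocyte list, which contains Ly6c2, summed to 49.4 to 84.0 TPM in WT and to 6.41 to 9.73 TPM in null BMM. Its 3 tested genes differed in direction, with F13a1 lower (log2 fold change -3.73), Vcan higher (4.598) and Ccr2 not called (0.22). Of 10 macrophage markers 7 were called lower and 2 higher, with a median log2 fold change of -0.71. Of 4 osteoblast markers tested 3 were higher, among them Col1a2 (3.35) and Col1a1 (2.05), and 1, Spp1, was lower (-1.53). Among 4 endothelial markers tested 3 were higher and 1 lower, and among 6 osteoclast markers 2 were higher and 3 lower. The part of other cells in the Ly6a and Ly6i values was not tested.

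In the RANK-L cultures Ly6a differed in the other direction, and Ly6e was lower as well. Again 3 members passed the filter, and 2 of them, Ly6a and Ly6e, fell in null OC (edgeR adjusted p under 0.05), beside 33.1% of 12121 genes called lower, 32.4% higher and 65.6% in all. Ly6e went from 1006, 1154 and 1222 TPM in WT OC to 459, 519 and 591 TPM in null OC. No null library reached the lowest WT library. The log2 fold change was -0.89 (SE 0.07, edgeR adjusted p = 9.28e-09). Beside these falls, 8 of 10 macrophage markers were called higher in null OC and 1 lower, with a median of 1.64 and sums of 55191 to 66382 TPM against 16918 to 18845 in WT OC. All 9 osteoclast markers were called lower, and the neutrophil list summed to 41.4 to 55.9 TPM against 2.30 to 4.24 in WT OC. Of that list, 7 of the 10 genes were at or under 3 counts in every null OC library. Its 2 tested genes differed in direction, with S100a8 higher (log2 fold change 5.81) and Cxcr2 lower (-0.63). The part of these marker shifts in the members' values was not tested.

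Ly6a was at 36.9, 51.5 and 68.5 TPM in WT OC and at 20.1, 28.2 and 31.7 TPM in null OC. These groups did not overlap either. The fall was 0.73 on the log2 scale (log2 fold change -0.73, SE 0.17, edgeR adjusted p = 0.00124).

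Ly6i had 13.2 to 21.3 counts in WT OC and 10.2 to 35.6 counts in null OC, and the groups overlapped. Its log2 fold change was 0.57 (SE 0.31, edgeR adjusted p = 0.117, 95% interval -0.04 to 1.19), so it was not called. Leaving out null OC replicate 2 or replicate 5 brought it past the threshold, at 0.72 in both fits (adjusted p = 0.0473 and 0.0488). Ly6c1, Ly6c2 and Ly6k had at most 4.05 counts in any OC library.

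The response to RANK-L itself differed between genotypes for Ly6a and Ly6e. In WT cells both rose from BMM to OC, where 30.4% of 12661 genes were called higher, 30.1% lower and 60.5% either way. Ly6a rose 7.72-fold (log2 fold change 2.95, SE 0.21, edgeR adjusted p = 1.86e-12). Ly6e rose 1.49-fold (0.58, SE 0.09, adjusted p = 2.73e-06). Ly6i in WT OC was at least 4.93-fold above the floor of 3 counts per library in WT BMM, which is a description.

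The response in WT cells shares its WT BMM libraries with the genotype comparison in BMM. In null cells none of Ly6a, Ly6e and Ly6i passed the same test: 0 of 3 passed with edgeR, 0 had an unadjusted p under 0.05, and 0 passed with DESeq2 or limma-voom. For comparison, 6.78% of the 12661 genes were called higher in null OC than in null BMM, 6.07% lower and 12.9% either way. The members' log2 differences were 0.04 for Ly6a (95% interval -0.33 to 0.42), -0.14 for Ly6e (-0.31 to 0.04) and -0.61 for Ly6i (-1.22 to 0.01).

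The interaction, which is the null response minus the WT response, was past the threshold for Ly6a and Ly6e, with 26.1% of 12661 genes called in that direction and 51.4% either way. It was -2.91 for Ly6a (log2, SE 0.29, edgeR adjusted p = 1.85e-09) and -0.71 for Ly6e (SE 0.13, edgeR adjusted p = 2.87e-05). For Ly6i nothing is read from it, because WT BMM lay at the floor.

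**Figure D2:**
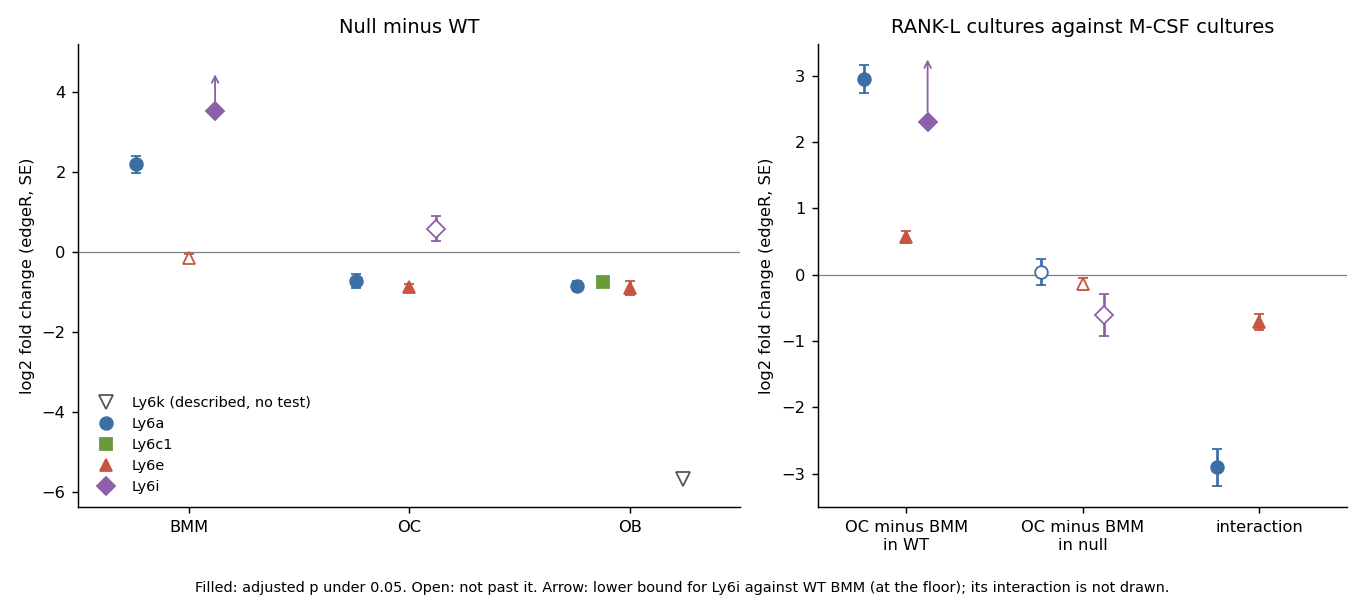
Log2 fold changes of the members, with SE derived from the edgeR F statistic. The left panel shows null minus WT in each culture. The right panel shows RANK-L cultures minus M-CSF cultures within each genotype and the difference of those responses. Filled markers passed an adjusted p of 0.05 and open ones did not, apart from Ly6k and from Ly6i with an arrow, both drawn without a test. An arrow marks a lower bound for Ly6i, drawn filled. Ly6a is 2.19 in BMM and below 0 in OC and OB, and Ly6k is at -5.70 in OB.

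In the OB cultures every member that was tested for genotype fell. There 4 members passed the filter, and apart from Ly6k, which was chosen on this contrast, all 3 of them, Ly6a, Ly6c1 and Ly6e, were lower in null cells (edgeR adjusted p under 0.05). Of 13607 genes tested, 16.9% were called lower, 15.5% higher and 32.5% in all; the count of genes called in all was 2289 with the length and GC offset, against 4420 without it. Macrophage markers moved in the same direction, 8 of 10 called lower with a median log2 fold change of -0.62, and osteoblast markers in the other, 5 of 10 higher and 0 lower with a median of 0.57. Of 9 osteoclast markers 4 were called higher and 0 lower. Of 6 stromal progenitor and fibroblast markers tested 3 were higher and 2 lower, and of 3 monocyte markers 2 were higher and 1 lower. The part of these shifts in the members' values was not tested.

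Ly6a was at 196, 221 and 253 TPM in WT OB and at 102, 135 and 178 TPM in null OB. The highest null library stayed below the lowest WT library. The log2 fold change was -0.86 (SE 0.13, edgeR adjusted p = 3.04e-04), and -0.57 with the length and GC offset, where the call held.

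Ly6c1, known as a marker of monocytes and of some endothelial cells, was at 21.8, 25.1 and 30.3 TPM in WT OB and at 14.2, 17.5 and 21.4 TPM in null OB. The gap between the groups was narrow. The log2 fold change was -0.76 (SE 0.12, edgeR adjusted p = 2.47e-04), and it shrank to -0.44 with the length and GC offset but was still called.

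Ly6e was at 559.6, 637 and 728 TPM in WT OB and at 258, 352 and 621 TPM in null OB. Here the groups overlapped through null OB replicate 5 alone, at 621 TPM, since the next highest null library had 429.7 TPM. The log2 fold change was -0.90 (SE 0.17, edgeR adjusted p = 0.00191), or -0.65 with the length and GC offset. Without null OB replicate 5 it was -1.09.

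The other members of the cluster had few reads in OB. Ly6i had 5.07 to 22.3 counts in WT OB and 1.01 to 11.1 in null OB and did not pass the filter. In a fit of all 36 libraries, where it passed, its log2 fold change in OB was -1.11 (edgeR adjusted p = 0.0421). In the OB fit with no filter on low counts Ly6i was also at -1.11 but was not called (edgeR adjusted p = 0.111). Ly6c2 had 1.05 to 6.89 counts in WT OB and was listed at 0 in all 6 null OB libraries, so at 3 counts per library neither group stood clear of the floor. With no filter on low counts Ly6c2 would have been called in OB (adjusted p = 0.00274) and in BMM (adjusted p = 0.0339, edgeR), on these few counts. With the counts of Ly6c1 and Ly6c2 summed, the log2 fold change in OB was -0.79 (edgeR adjusted p = 1.78e-04), beside -0.76 for Ly6c1 alone.

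Ly6k was picked for what follows, so its values are described only. It had 114 to 212 counts in WT OB and 1 to 7 counts in null OB, which is 14.6, 25.3 and 28.8 TPM (lowest, median and highest) against 0.164, 0.468 and 1.02 TPM. Mean TPM was 47.7-fold lower in null OB, and the fitted log2 fold change was -5.70. That placed Ly6k the fifth lowest of the 13607 genes in this contrast. The next in that order was Kcnj8, a potassium channel subunit, at -3.44, and the features below Ly6k were the predicted genes Gm12671, Gm7336, Gm10359 (at -11.86 each) and Gm5514 (at -7.67). Gm12671, Gm7336 and Gm10359 had identical mean levels, 23.2 CPM in WT OB and 0 in null OB. They may be a single signal shared among them, so the rank of Ly6k may count it more than once.

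Both annotated transcripts of Ly6k were low in null OB. The longer, of 791 bases, had 17.2 ± 2.8 TPM in WT OB and 0.415 ± 0.31 in null OB (mean ± SD, n = 6), and the shorter, of 612 bases, had 6.72 ± 3.6 and 0.0852 ± 0.072. In the other 24 libraries Ly6k was listed at 0 in all but 1, a null BMM library with 2 counts. Against the floor in WT BMM it was at least 57.0-fold higher in WT OB, again with no test.

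Between cell types in WT mice, Ly6a was called higher in OB than in both other cultures. Ly6c1 passed the filter over all 36 libraries only through OB, so its difference from BMM and OC is described with no test. Against BMM Ly6a rose and Ly6e was not called, with 41.5% of 14268 genes called higher, 35.3% lower and 76.8% either way. The rise of Ly6a was 35.8-fold (log2 fold change 5.16, SE 0.21, edgeR adjusted p = 8.54e-22). Ly6c1 was at least 63.6-fold higher against the floor in WT BMM, where it was listed at 0 throughout, and Ly6i at least 3.96-fold higher.

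Ly6e did not differ past the threshold between WT OB and WT BMM, at -0.15 (log2, SE 0.13, edgeR adjusted p = 0.263), and with the length and GC offset it was called lower at -0.45 (adjusted p = 0.00142). Against OC Ly6a rose and Ly6e fell, beside 41.3% of genes called higher, 36.7% lower and 77.9% in all. Ly6a was 4.62-fold higher in WT OB than in WT OC (2.21, SE 0.18, edgeR adjusted p = 1.38e-13), and Ly6e lower by a log2 fold change of -0.73 (SE 0.13, edgeR adjusted p = 2.84e-06). Ly6i differed by -0.36 (SE 0.37, edgeR adjusted p = 0.376) and was not called. Ly6c1 was at least 69.0-fold higher than the floor in WT OC.

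The coding sequences of Ly6c1 and Ly6c2 are nearly the same, but only Ly6c1 was above the floor in all 12 OB libraries. Their upstream sequences are shown as a description, the 250 bases before the first listed start site of each gene, with any TATAAA in capitals (RefSeq, GRCm38.p6, minus strand, written 5′ to 3′). RefSeq's table held the promoters of these 2 members and of none of the other 4. The upstream sequence of Ly6c1 lies at chr15:75048838-75049087 and that of Ly6c2 at chr15:75111972-75112221.
Ly6c1 upstream: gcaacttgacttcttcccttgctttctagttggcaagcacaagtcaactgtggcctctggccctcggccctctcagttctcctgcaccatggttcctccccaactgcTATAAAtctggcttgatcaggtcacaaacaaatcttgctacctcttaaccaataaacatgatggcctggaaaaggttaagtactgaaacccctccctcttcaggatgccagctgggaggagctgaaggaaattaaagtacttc
Ly6c2 upstream: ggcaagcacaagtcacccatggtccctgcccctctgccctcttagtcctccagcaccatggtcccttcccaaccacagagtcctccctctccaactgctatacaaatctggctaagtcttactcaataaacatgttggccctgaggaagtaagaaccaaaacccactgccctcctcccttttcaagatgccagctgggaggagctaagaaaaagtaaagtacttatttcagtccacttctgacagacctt

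TATAAA was found once in the Ly6c1 sequence, starting 143 bases before the start site, and not in that of Ly6c2. Before the second listed start site neither gene had it. On either strand it was in 12.4% of 32851 upstream sequences of the same length. The core letters of the interferon-stimulated response element, GAAA, any 2 bases and GAAA again, were in 2.98% of all upstream sequences, and those of the gamma-activated site, TTCNNNGAA, in 7.02%. Neither was found in the upstream sequences of Ly6c1 or Ly6c2. Motifs were searched on both strands. Any part of these sequences in the levels of Ly6c1 and Ly6c2 was not tested.

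The genotype effects themselves were then compared between cultures. Against its effect in BMM, the effect in OB was lower for Ly6a and Ly6e, with 24.3% of 14268 genes called in that direction and 45.9% either way. The difference was -3.03 for Ly6a (log2, SE 0.27, edgeR adjusted p = 2.00e-11). For Ly6e it was -0.72 (SE 0.18, edgeR adjusted p = 0.00114), a call that was lost with the length and GC offset at -0.35 (adjusted p = 0.113). Against the effect in OC, 27.4% of genes were called lower and 55.2% either way, and 1 of 3 tested members was called, Ly6i, at -1.68 (SE 0.54, edgeR adjusted p = 0.00894) on the few counts given above. Ly6a differed by -0.11 (95% interval -0.60 to 0.37) and Ly6e by 0.00 (interval -0.35 to 0.35) between OB and OC, neither of which passed.

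Because Ly6a and Ly6e are known as interferon-induced genes, 28 interferon-stimulated genes without the members were read beside them. In BMM 25 of 28 fell in null cells and 0 rose, where 25.4% of all genes were called lower and 27.0% higher. The list median was a log2 fold change of -1.23 beside 0.02 over all genes tested, while Ly6a rose. The summed level of the list was 1630 to 2400 TPM in WT BMM and 645 to 1090 TPM in null BMM. Oas2, an antiviral enzyme, fell in null BMM (log2 fold change -2.08, SE 0.18, edgeR adjusted p = 1.80e-07), as did Ifi27l2a (-2.90, SE 0.25, edgeR adjusted p = 4.66e-07). In OC, 9 of 27 tested fell and 5 rose, where 33.1% of all genes were called lower and 32.4% higher (median -0.14, beside -0.03 over all genes), and the sums were 858 to 1286 TPM in WT and 633 to 931 TPM in null. From BMM to OC in WT cells 22 of 28 fell and 1 rose, beside 30.1% of all genes called lower and 30.4% higher. Ly6a and Ly6e rose in that comparison. Any part of interferon in the members' values was not tested.

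Bst2, a GPI-anchored protein that tethers virus particles to the cell, rose in null OC (1.31, SE 0.07, edgeR adjusted p = 3.97e-11), fell in null OB (-1.14, SE 0.19, edgeR adjusted p = 9.31e-04) and was not called in BMM (0.08).

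In OB, 6 of the 28 fell and 0 rose, beside 16.9% of all genes called lower and 15.5% higher. The list median was -0.98 beside 0.00 over all genes, and the null libraries were uneven. The list summed to 1122 to 1818 TPM in WT OB. In null OB it summed to between 498 and 540 TPM in replicates 1 to 4, to 1732 TPM in replicate 5 and to 1213 TPM in replicate 6. The same replicates 5 and 6 held the highest null OB levels of Ly6e, at 621 and 429.7 TPM, and of Ly6a, at 166 and 178 TPM. In the same libraries Ly6c1 was at 14.9 and 19.7 TPM, within a null range of 14.2 to 21.4, and Ly6k at 0.359 and 0.164 TPM. Any part of interferon in these levels was not tested. With replicates 5 and 6 left out, a choice made after seeing the data, the log2 fold changes were -1.17 for Ly6e, -1.05 for Ly6a and -0.78 for Ly6c1, all called by edgeR, with 3939 genes called in all.

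**Figure D3:**
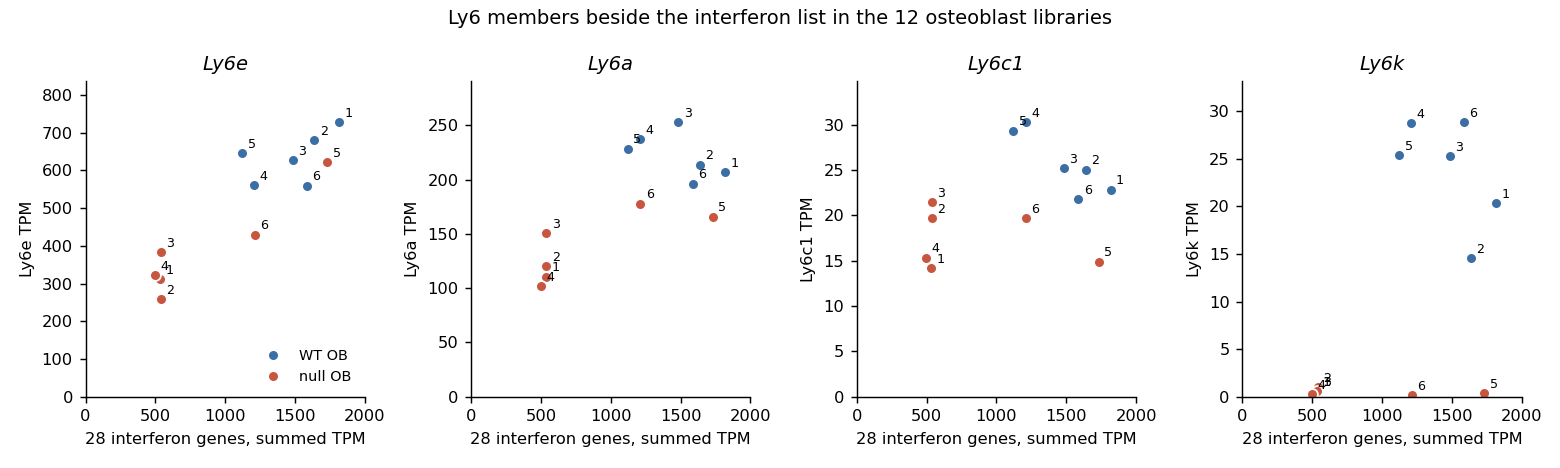
Level of Ly6e, Ly6a, Ly6c1 and Ly6k (TPM, vertical axes) against the summed TPM of 28 interferon-stimulated genes (horizontal axes) in the 12 OB libraries; numbers are replicates, blue WT and red null. Null replicates 5 and 6 lie at 1732 and 1213 TPM on the horizontal axis, with Ly6e at 621 and 429.7 TPM, while Ly6k stays at or below 1.02 TPM in all 6 null libraries.

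Genes of interferon signalling, among them receptor subunits and kinases, were counted too. Of 11 tested, 2 rose and 5 fell in null BMM, 9 rose and 0 fell in null OC, and 0 rose and 4 fell in null OB. Over all genes tested, 27.0% were called higher and 25.4% lower in BMM, 32.4% and 33.1% in OC, and 15.5% and 16.9% in OB. Jak2, a kinase of the interferon gamma receptor, rose in null BMM (log2 fold change 1.07, SE 0.15) and null OC (1.31, SE 0.15), with adjusted p of 2.57e-05 and 6.42e-07 (edgeR). Ifnar2, a subunit of the type I interferon receptor, fell in null OB by -0.38 (SE 0.07, edgeR adjusted p = 7.05e-04) and rose in null OC by 0.65 (SE 0.06, adjusted p = 5.27e-08).

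The enzymes that build and attach the GPI anchor of Ly6 proteins were counted likewise, beside the same shares over all genes. Of 23 tested, 5 rose and 6 fell in null BMM, 8 rose and 5 fell in null OC, and 2 rose and 4 fell in null OB, with medians of -0.08, 0.16 and 0.01. Gpaa1, a subunit of the transamidase that attaches the anchor, rose in null OC (0.93, SE 0.07, edgeR adjusted p = 1.73e-09). Pigo, which acts in anchor synthesis, fell in null OC (-1.16, SE 0.10, edgeR adjusted p = 2.89e-08).

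Neighbours of the members in the same cluster were mostly silent. Of 15 listed, 13 were in the tables and 1, Lynx1, passed a filter in a genotype comparison. Lynx1, a modulator of nicotinic receptors, averaged 18.7 ± 3.1 TPM in WT OB and 21.5 ± 1.9 in null OB, with a log2 fold change of 0.06 (SE 0.09, edgeR adjusted p = 0.682). In OC Lynx1 averaged 0.203 ± 0.22 TPM in WT and 0.972 ± 0.47 TPM in null, low levels given here with no test. The neutrophil gene Ly6g averaged 0.0876 TPM in null BMM and was listed at 0 in the other 5 groups.

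Of the 17 genes with an LU domain elsewhere in the genome, 3 were tested in each culture. Cd59a, which blocks the complement attack complex, fell in null OC from 97.3 ± 6.2 to 15.9 ± 3.4 TPM (log2 fold change -2.39, SE 0.10, edgeR adjusted p = 3.20e-12) and in null OB by -0.45 (SE 0.11, edgeR adjusted p = 0.00470). Cd59b fell in both as well, at -0.84 and -0.53. Plaur, the urokinase receptor, rose in null OC by 1.19 (SE 0.14, edgeR adjusted p = 1.53e-06) and was not called in null OB (-0.06). None of the 3 was called in null BMM, where the adjusted p of Plaur was 0.0562.

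**Figure D4:**
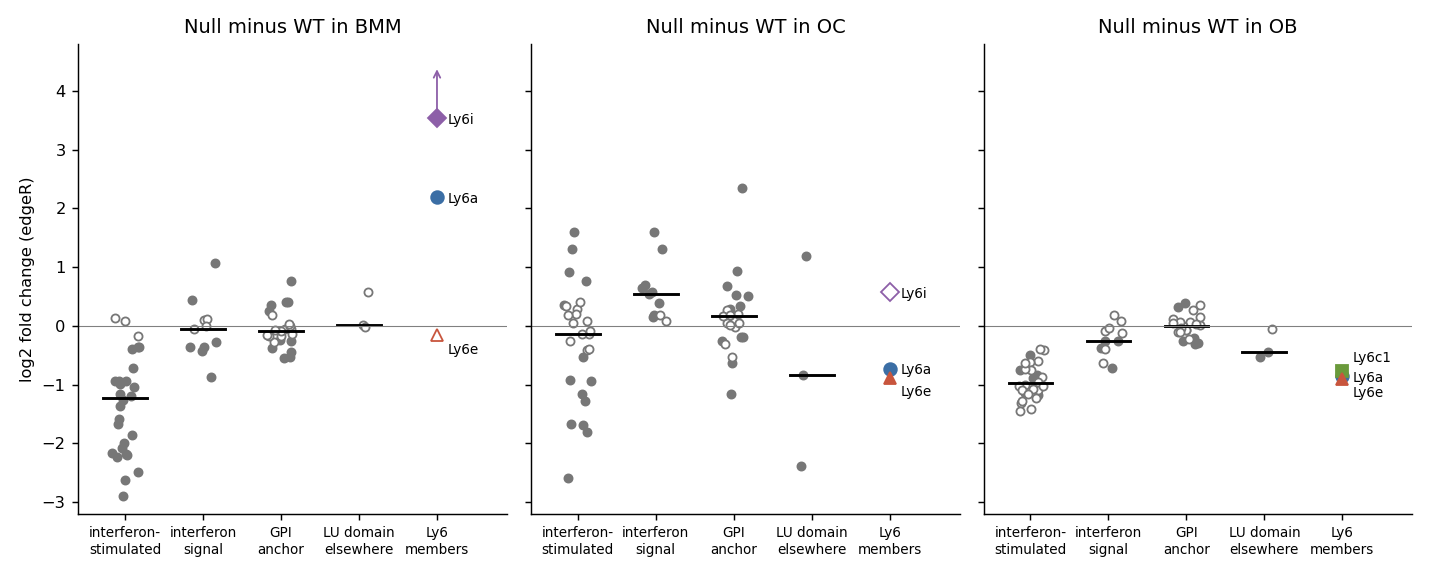
Log2 fold change of null against WT (edgeR) in BMM, OC and OB for the genes of 4 lists and for the Ly6 members. Filled points passed an adjusted p of 0.05, open points did not, and bars are list medians. The arrow marks a lower bound for Ly6i in BMM, drawn filled but with no test. Interferon-stimulated genes have medians of -1.23, -0.14 and -0.98 in the 3 cultures, and Ly6a is at 2.19, -0.73 and -0.86.

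The genes most like each member were those with the highest Pearson r of log2 CPM, a description over libraries that share genotype and culture. Over all 36 libraries and 14268 genes, Ly6a was nearest to Ak1 (r = 0.968), Plpp1 (0.964) and Lpar1 (0.960), and Ly6c1 to Calhm5, Ccn3 and Ptx3 (0.996, 0.996 and 0.995), which like it separate OB from the other cultures. Ly6e was nearest to Oas1g (0.888), an antiviral enzyme gene, Epsti1 (0.871) and P2ry14 (0.864), and Ly6i to Upp1 (0.880), Nr1h3 (0.859) and Cd55 (0.858). Ly6k was nearest to Kcnj8 (0.980), Pvalb (0.963) and Hoxd10 (0.933).

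Over the 12 OB libraries alone the nearest genes changed for each member measured there. Ly6e was nearest to Psmb9 (r = 0.992), an immunoproteasome subunit, Slfn2 (0.980) and Bst2 (0.979), and Ly6a to Epsti1 (0.976), Vta1 (0.955) and Lgals9 (0.952). Ly6c1 was nearest to Vta1 (0.982), Tctex1d2 (0.969) and Smpdl3a (0.965), and Ly6k to Snrpg, Gm7336 and Gm12671 (0.986, 0.984 and 0.984). Gm7336 and Gm12671 had identical mean levels and the same r, so they may be a single signal. These r values include the difference between the genotypes. Among members, r was 0.935 for Ly6a with Ly6c1, 0.909 for Ly6a with Ly6e and 0.785 for Ly6c1 with Ly6e; over all 36 libraries Ly6a with Ly6e was at -0.260.

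The transcripts of Ly6e and Ly6a are described by their mean levels. The most abundant Ly6e transcript, of 1122 bases, went from 694 ± 48.6 TPM in WT OC to 321 ± 39.4 in null OC and from 392 ± 39.998 in WT OB to 239 ± 80.2 in null OB, and the next, of 575 bases, from 261 ± 29.4 to 122 ± 19.8 and from 143 ± 23.6 to 85.8 ± 32.3. For Ly6a the most abundant transcript, of 955 bases, averaged 3.64 ± 2.0 TPM in WT BMM and 11.95 ± 4.1 in null BMM. The same transcript averaged 126 ± 18.0 TPM in WT OB and 87.9 ± 25.4 in null OB. These transcript levels were not tested.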

How the data were processed

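RNA-seq was measured in 36 libraries of BMM, OC and OB cultures from WT and Mir324-null mice. The authors deposited, for each library, estimated counts and TPM per Ensembl transcript; kallisto and DESeq2 are named in the submitters' processing notes, with no versions, and the build those notes name is GRCh38 although the transcript identifiers are those of mouse. Of 88198 transcripts, 97.5% matched GENCODE M21 (GRCm38), and the unmatched held 0.629% to 0.974% of a library's counts and stayed out. Of the matched, 88.9% had the length annotated there. Shared words, coding sequences and 3′ untranslated regions were read from GENCODE M21, which may differ from the sequences used in the counting. The deposited estimated counts and TPM were summed per gene, and the counts rounded. Genes passing filterByExpr were tested with edgeR 4.0.16 (R 4.3.3; TMM scaling, robust quasi-likelihood F test, p-values adjusted by Benjamini-Hochberg across every tested gene, threshold 0.05). Genotype within a culture was fitted on its 12 libraries. RANK-L responses were fitted on the 24 BMM and OC libraries, and comparisons with OB on all 36. Each SE was derived as the absolute log2 fold change over the square root of the edgeR F statistic. The 95% intervals are 1.96 SE to each side, a normal factor that makes them somewhat narrow. A floor of 3 counts per library gave the bounds written "at least", and intervals and floors cover counting error or the spread of these libraries only. CPM for likeness had a prior count of 2. DESeq2 1.42.0, limma 3.58.1 (voom), RLE scaling, other filters, length and GC offsets, a replicate block, a sum of Ly6c1 and Ly6c2 and fits leaving out 1 library were the alternatives. The procedure was tested on simulated data. Figures and tables were made with Python 3.11.15, numpy 2.4.6 and pandas 2.3.3. The closest replicates, WT OC 3 and 6, still differed by more than sampling noise (chi-square per gene 3.55).

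The members and the gene lists were chosen with earlier results of these data known. Named are the 6 members, for each member the 3 genes with the highest r, neighbours tested for genotype, and from each list some of the 4 genes with the smallest p in a genotype comparison; Ly6g and the genes next to Ly6k in order were singled out after their values were seen. Some items are not reported here.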

Additional observations from a re-analysis of the deposited data

Results flagged for a closer look

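Among 24 sets of 6 libraries checked for a single distant value, which chance gives in about 1 of 20 sets, 1 stood out: Ly6c2 in WT OB replicate 6, at 1.246 TPM, where the median of WT OB was 0.201 TPM and no WT OB library had more than 6.89 counts.

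The response to RANK-L differed between genotypes by an interaction term (edgeR) for Ly6a (log2 difference -2.91) and Ly6e (-0.71). For Ly6i the fitted term was -5.69, but WT BMM lay at the floor, so nothing is read from it. The genotype effect in OB differed from that in BMM for Ly6a (-3.03) and Ly6e (-0.72). For Ly6i that term was a fitted -7.39, again with WT BMM at the floor and nothing read from it. The genotype effect in OB differed from that in OC for Ly6i (-1.68), which had at most 35.6 counts in any library of those cultures. The first and the second set of differences share the BMM libraries.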

How the results depend on the processing

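Of 824 alternative values for 32 results of single members, 790 kept direction and side of the threshold, 2 lost the threshold, 6 gained it and 26 turned, none of them among the called. The 824 include every Ly6i result that involves WT BMM and those of Ly6c1 between OB and the other cultures. These are described above with no test. All of them kept, but 1 side lay at the floor, so they say nothing about how firm the other results are. Those that turned lay near 0. For Ly6a between null OC and null BMM, limma-voom gave -0.057, and fits without 1 library gave -0.047 to 0.214. For the Ly6e genotype effect in OB against OC, RLE scaling gave -0.013, DESeq2 -0.013, limma-voom -0.133, keeping every gene -0.050, keeping genes averaging 10 counts or more -0.016, and fits without 1 library -0.205 to 0.058. For Ly6a there, the length and GC offset gave 0.0053. Without a filter 2 members, not 1, were called in that comparison. Genes called between null OC and null BMM numbered 1628, but 1013 with limma-voom and 840, 810, 948 and 1046 without null BMM replicate 2, 3 or 4 or null OC replicate 3. On CPM in place of TPM, the log2 ratio of means for Ly6e went from -0.36 to -0.18 in BMM and from -1.11 to -0.84 in OC.

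No pairing of libraries by replicate number was shown (correlations of same-numbered deviations -0.13 to 0.10), and these correlations cannot exclude shared mice. With the replicate block, Ly6e was -0.95, Ly6a -0.88 and Ly6c1 -0.76 in OB, all 3 called, and Ly6e in OB against OC turned to -0.0054; with the length and GC offset besides, 1979 genes were called in OB and 1016 between null OC and null BMM. Low counts limit Ly6i and Ly6c2 in each culture, and Ly6c1 and Ly6k in BMM and OC.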
